A study of Mus musculus with 6 samples.

Results

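The enzymes described here recycle purines and handle adenosine, and were followed in mouse embryonic stem (ES) cell derivatives in which the transcription factor Etv2 had been switched on. They comprise 10 named genes, Hprt, Nt5e, Aprt, Adk, Ada, Entpd1, Ampd3, Impdh2, Gart and Adsl, taken with every probe set (a group of short array probes read as 1 value) whose annotated symbol is exactly 1 of these names. Of the 10, 9 genes were matched, with 22 probe sets out of 34945 that carry 1 symbol and stand for 18193 genes. Impdh2 matched none and has no value here. Hprt and Nt5e were chosen by their measured rise in the induced arrays of this same comparison, so their values are given as a description with no test. The other 8 genes were added to show whether the pathway follows.

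The ES cells came from mouse strain 129P2/Ola and carried a doxycycline-inducible Etv2 cassette (line ER71 A17C, ER71 A2Lox.cre), in controls and induced samples alike. They were grown as embryoid bodies in hanging drops, and Flk1-positive cells were sorted on day 3.5, Flk1 being the VEGF receptor encoded by Kdr. The 3 induced samples received doxycycline at 0.5 microg/ml for the last 12 hours, from day 3, and the 3 controls were untreated, although the treatment field carries the doxycycline text on all 6. All samples come from 1 line, and the labels do not say that replicates were separate cultures, so p-values reflect only the spread among these arrays, which could be technical. No doxycycline-treated line without the cassette was analysed here. Levels are log2 RMA values, so a difference of 1 is a 2-fold change, and fold changes are given as induced relative to control.

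Cells obtain purine nucleotides along a pair of routes. De novo synthesis builds the ring step by step to inosine monophosphate (IMP), while salvage joins a finished base or nucleoside to phosphoribose or phosphate and so spares that cost. Outside the cell, surface enzymes strip ATP down to adenosine, a signal that endothelial and blood cells also sense. Deaminases turn adenosine into inosine. The A2Lox.cre system is known for carrying its doxycycline-responsive cassette at a docking site beside Hprt on the X chromosome, so Hprt is a neighbour of the induced transcription unit as well as a salvage gene.

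Etv2 belongs to the ETS family, whose members bind DNA around the core GGAA. The 250 bases upstream of the annotated start are shown for the 2 genes chosen for their rise and for Ada, whose window holds the longer core form described next more often than the other members' windows. The sequences are those of RefSeq (GRCm38.p6), written 5′ to 3′ along the gene, and capitals mark GGAA or its complement TTCC.
Hprt, chrX:52987828-52988077, plus strand: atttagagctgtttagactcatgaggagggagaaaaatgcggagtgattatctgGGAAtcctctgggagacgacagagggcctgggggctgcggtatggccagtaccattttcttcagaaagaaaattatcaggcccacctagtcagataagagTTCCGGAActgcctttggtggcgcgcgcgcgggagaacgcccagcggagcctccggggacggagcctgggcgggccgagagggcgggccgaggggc
Nt5e, chr9:88327359-88327608, plus strand: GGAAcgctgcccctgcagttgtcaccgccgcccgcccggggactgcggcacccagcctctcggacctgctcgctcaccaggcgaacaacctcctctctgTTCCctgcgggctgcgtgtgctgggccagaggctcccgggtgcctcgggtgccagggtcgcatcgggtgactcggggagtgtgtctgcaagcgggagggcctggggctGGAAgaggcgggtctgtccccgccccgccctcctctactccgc
Ada, chr2:163750240-163750489, minus strand: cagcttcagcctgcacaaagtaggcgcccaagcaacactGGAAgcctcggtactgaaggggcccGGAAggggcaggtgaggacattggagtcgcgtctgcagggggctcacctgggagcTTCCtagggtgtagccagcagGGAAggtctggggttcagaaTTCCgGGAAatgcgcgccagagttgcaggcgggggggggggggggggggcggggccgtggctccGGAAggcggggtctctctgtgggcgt

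GGAA, read on both strands, occurred 3 times in the Hprt window and 3 times in that of Nt5e. The core is common, being present in 93.4% of 32851 upstream windows of the same length, with a median of 3 matches. The longer form CCGGAA, which contains GGAA, was found 2 times in the Hprt window, as the overlapping readings of 1 palindrome on the 2 strands. It was found 3 times in the Ada window, which holds 7 copies of GGAA, and 0 times in that of Nt5e, and 12% of all windows hold it. Among the 14 windows of the 10 genes, 13 held GGAA and 3 held CCGGAA, the last being a window of Ampd3. A window of Entpd1 also held 7 copies of GGAA. The log2 fold change of Ada was -0.23 and those of the 3 Entpd1 probe sets ran from 0.0038 to 0.074, none of them past the test's threshold. These matches describe letters of the reference genome only, and no binding was measured in these samples. The sequence of the line itself, where the cassette sits beside Hprt, was not examined.

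Hprt encodes hypoxanthine phosphoribosyltransferase, which returns hypoxanthine and guanine to the nucleotide pool. Its only probe set, 1448736_a_at, stood at log2 levels of 8.47, 8.29 and 8.44 in controls 1, 2 and 3. In induced samples 1, 2 and 3 it stood at 9.96, 9.80 and 10.13. All 3 induced arrays lay above all 3 controls, with the nearest arrays of the groups over 1 log2 unit apart. The means were 8.40 ± 0.097 (SD, n = 3) and 9.96 ± 0.17, which are 2.96-fold apart. On the log2 scale the difference was 1.57 ± 0.10 (SE).

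The rise of Hprt was of like size in each replicate number, at 1.49, 1.52 and 1.70 for numbers 1, 2 and 3. It was the change with rank 2 by size among 45037 probe sets, and since Hprt was chosen for its rise, nothing is read from that rank. Etv2, the gene of the cassette, stood at 9.92, 8.59 and 10.71 in controls 1, 2 and 3, against 13.27, 13.28 and 13.36 in the induced samples. Across the controls Etv2 ranged over more than 2 log2 units, while Hprt stayed between 8.29 and 8.47. Control 2 was the lowest control for both genes, and induced 3 the highest array for both. The highest control, however, was number 3 for Etv2 and number 1 for Hprt. The lowest induced array was number 1 for Etv2 and number 2 for Hprt. An effect of Etv2 on Hprt, of the transcribed cassette at the neighbouring site and of doxycycline itself cannot be told apart in this design.

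Nt5e encodes CD73, the surface 5′-nucleotidase that makes adenosine from AMP, and its 3 probe sets disagreed. Probe set 1428547_at read 8.50, 8.89 and 7.58 in controls 1, 2 and 3, against 9.81, 9.47 and 9.09 in induced samples 1, 2 and 3. The groups did not overlap, but the highest control and the lowest induced array were close. On the log2 scale the induced mean was higher by 1.13 ± 0.33 (SE), which is 2.19-fold. The differences within numbers 1, 2 and 3 were 1.31, 0.58 and 1.50.

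This probe set was among the most variable within groups, with a within-group SD of 0.54 that exceeded those of 98.9% of all probe sets. In both groups its lowest array was number 3, which was also the array with the highest Kdr of its group, at 10.97 in control 3 and 10.52 in induced 3. Control 2, the control with the highest Nt5e, had the lowest Kdr, at 8.40, but among the induced samples Nt5e was highest in induced 1, with a Kdr of 9.56, and Kdr was lowest in induced 2, at 9.36. The mean of the 5 measured mesoderm markers ran from 11.22 to 12.63 in controls and from 11.63 to 12.32 in induced samples, and that of the 6 pluripotency markers from 10.92 to 11.67 and from 11.19 to 11.39. The part of the mesoderm content in the Nt5e result was not tested. In such sorted bulk samples fewer cells of a type and less RNA per cell cannot be told apart.

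The second Nt5e probe set, 1422974_at, moved the same way by less. It read 8.52, 8.50 and 8.46 in controls 1, 2 and 3, against 8.88, 8.97 and 8.54 in induced samples 1, 2 and 3. All induced arrays were again above all controls, although induced 3 stood only just above control 1. The log2 fold change was 0.30 ± 0.12 (SE). The third, 1459023_at, read 7.97, 7.89 and 8.29 in controls, against 7.95, 8.24 and 7.90 after induction. These groups overlapped fully, and the log2 fold change was -0.016 ± 0.13. Which Nt5e transcripts each probe set reads was not examined here.

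**Figure D1:**
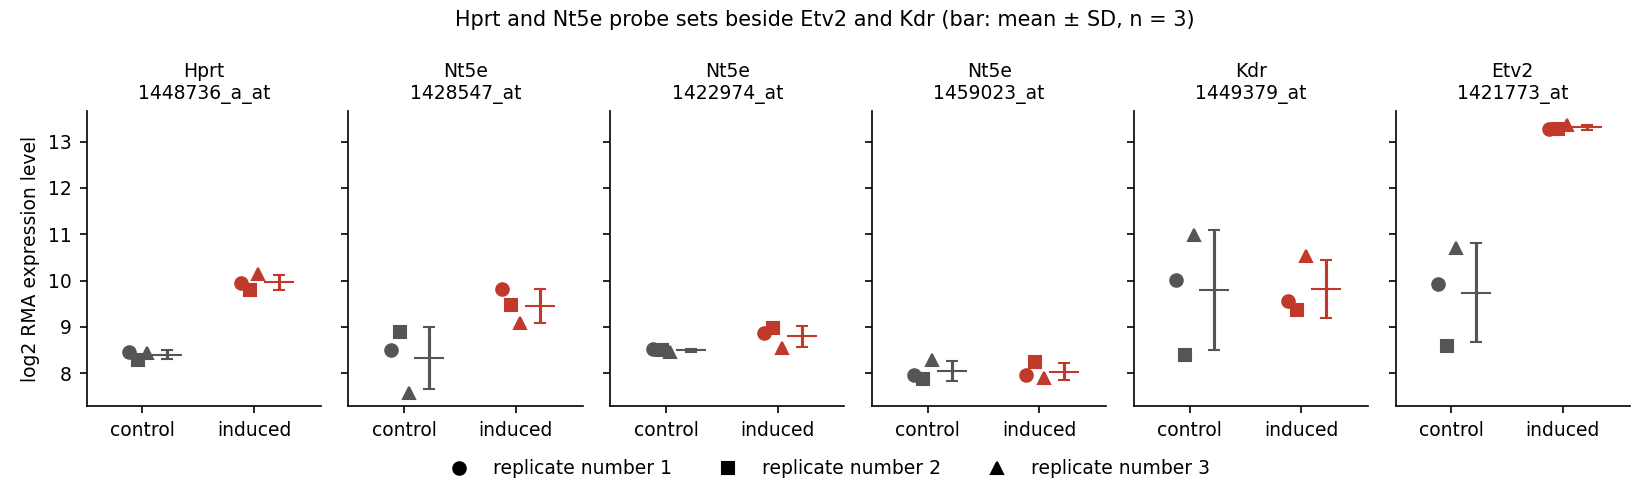
Log2 RMA levels of the Hprt probe set and the 3 Nt5e probe sets, with Kdr and Etv2 on the same axis, in each control (grey) and induced (red) array. Symbols give the replicate number and bars the mean ± SD of 3 arrays. Hprt separates into 8.29 to 8.47 and 9.80 to 10.13, whereas the Nt5e probe sets differ among themselves and Kdr overlaps between the groups.

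None of the other members changed past the threshold. Of the 18 probe sets of the other 7 measured genes, 0 passed an adjusted p of 0.05 in limma with Benjamini-Hochberg adjustment over all 45037 probe sets, and 0 had an unadjusted p under 0.05. Of all probe sets 1.53% had an unadjusted p under 0.05 and 0.00222% passed the adjusted threshold. The latter is 1 probe set, that of Hprt, and since Hprt was chosen for its rise in these arrays nothing is read from its place there. The count of 1 became 0 when any single array was left out, with the replicate number as a block, and with arrays centred on their medians. The 18 log2 fold changes ran from -0.24 to 0.14 with a median of -0.033, and 13 were negative, where 48.8% of all probe sets were. Their median size was 0.079, against 0.067 for all probe sets. The 13 include 5 of the 6 Adk probe sets and all 4 of Gart, so they are not separate genes. Of the 18, 12 lay above the table's median level. Of all genes above that level, read by 1 probe set each, 57.4% were negative. The adjusted p was 0.9998 for each of the 18, and it stayed at 0.965 or above under every alternative tried. Each 95% interval of the 18 ended below 0.32, so rises larger than that lie outside them. In the dim probe sets, below the table's median level, array background compresses differences.

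**Figure D2:**
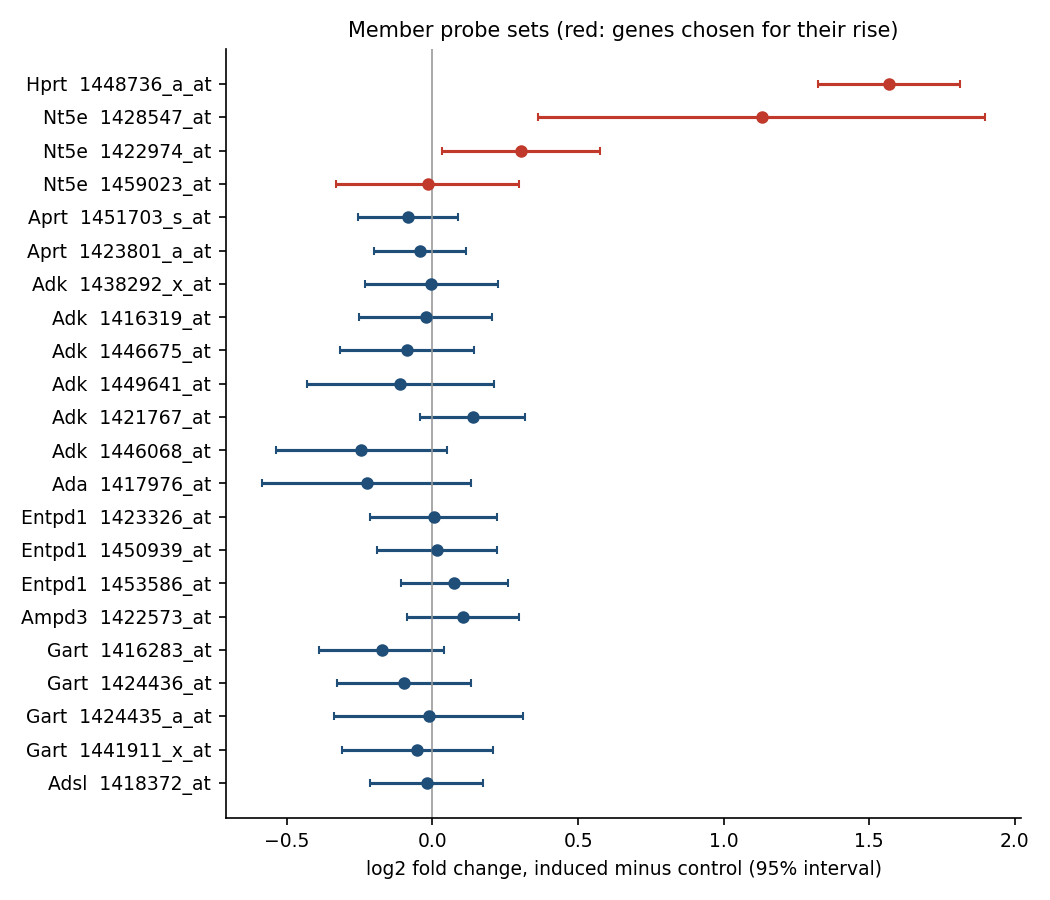
Log2 fold change of each of the 22 member probe sets, induced minus control, with its 95% interval from the limma fit. Hprt and Nt5e, the genes chosen for their rise, are in red, and because of that choice their intervals are no test. The 18 probe sets of the other genes lie between -0.24 and 0.14, and every one of their intervals spans 0.

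Aprt and Adk, the remaining salvage members, had no probe set past the threshold, and the brightest probe set of each had a log2 fold change of -0.083 for Aprt and -0.0034 for Adk. Suffixes _s_at and _x_at mark probe sets that can also read related transcripts, which among the members applies to 1 probe set each of Aprt, Adk and Gart. Aprt encodes adenine phosphoribosyltransferase, which does for adenine what Hprt does for hypoxanthine. Its probe set 1451703_s_at read 12.35, 12.24 and 12.35 in controls 1, 2 and 3, against 12.19, 12.22 and 12.28 in induced samples 1, 2 and 3. Control 2 fell among the induced arrays. Aprt had a log2 fold change here of -0.083 ± 0.074 (SE), with a 95% interval of -0.26 to 0.089. The other Aprt probe set, 1423801_a_at, read 12.20, 12.22 and 12.27 in controls, against 12.19, 12.18 and 12.18 after induction. All 3 induced arrays were below the controls here, by a log2 fold change of only -0.043 ± 0.068, in a probe set whose within-group SD of 0.026 was higher than that of only 1.06% of all probe sets.

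Adk encodes adenosine kinase, which recaptures adenosine as AMP inside the cell, and has 6 probe sets. The brightest, 1438292_x_at, read 12.39, 12.22 and 12.39 in controls 1, 2 and 3, against 12.36, 12.18 and 12.45 in induced samples 1, 2 and 3. Both number 2 arrays were the low ones, and the group means differed by a log2 fold change of -0.0034 ± 0.098 (SE), with a 95% interval of -0.23 to 0.23. The next, 1416319_at, read 11.16, 11.23 and 10.999 in controls, against 11.11, 10.99 and 11.23 after induction, so the groups overlapped and the log2 fold change was -0.023 ± 0.098.

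The remaining 4 Adk probe sets were dimmer and did not share a direction. Probe sets 1446675_at and 1449641_at overlapped between the groups, with log2 fold changes of -0.087 and -0.11. In 1421767_at all induced arrays, at 6.79 to 6.86, lay above the controls, at 6.62 to 6.78, by a log2 fold change of 0.14 ± 0.077 (SE). In 1446068_at all induced arrays lay below the controls, which read 5.96 to 5.999, and induced 2 at 5.45 was well under induced 1 at 5.85 and induced 3 at 5.91. Its log2 fold change was -0.24 ± 0.13, and -0.10 without induced 2. Both probe sets lie below the median level of the table. Among the 18 probe sets, 1 had all induced arrays above and 2 had all below, where 2.72% and 3.7% of all probe sets did.

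Adenosine is made at the cell surface by the products of Entpd1 and Nt5e in turn, and that of Ada removes it. Entpd1, which encodes CD39 and cuts ATP and ADP to AMP, was dim in all 3 of its probe sets. The brightest, 1423326_at, read 6.29, 6.33 and 6.52 in controls 1, 2 and 3, against 6.35, 6.49 and 6.30 in induced samples 1, 2 and 3. The groups overlapped, with a log2 fold change of 0.0038 ± 0.093 (SE). Probe sets 1450939_at and 1453586_at gave 0.016 ± 0.088 and 0.074 ± 0.079. All 3 lay below the table's median level of 7.35, where array background compresses differences.

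Ada encodes adenosine deaminase, which converts adenosine to inosine. Its probe set 1417976_at read 8.87, 8.44 and 8.71 in controls 1, 2 and 3, against 8.53, 8.17 and 8.65 in induced samples 1, 2 and 3. The induced array was the lower in each replicate number, by -0.35, -0.27 and -0.057, while the groups as a whole overlapped. The log2 fold change was -0.23 ± 0.15 (SE), with a 95% interval of -0.59 to 0.13. With the replicate number as a block the SE was 0.092, and this was the only one of the 18 probe sets to reach an unadjusted p under 0.05 in that fit, where 2.88% of all probe sets did, at a limma adjusted p of 0.9997. The value varied with single arrays, being -0.086 without induced 2, -0.13 without control 1 and -0.34 without control 2. As with the brightest Adk probe set, number 2 gave the lowest array of each group.

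Ampd3, which encodes an AMP deaminase that yields IMP, was dim. It read 4.63, 4.78 and 4.73 in controls 1, 2 and 3, against 4.75, 4.92 and 4.79 in induced samples 1, 2 and 3. The induced array was higher in each number, by 0.12, 0.14 and 0.055, but induced 1 lay below control 2. Its log2 fold change was 0.10 ± 0.083 (SE), with a 95% interval of -0.088 to 0.30. It was 0.062 without control 1 and 0.055 without induced 2.

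Gart and Adsl stand for the de novo route. Gart encodes a trifunctional protein that carries out several early steps of ring assembly. Its probe set 1416283_at read 11.72, 11.75 and 11.94 in controls 1, 2 and 3, against 11.61, 11.54 and 11.73 in induced samples 1, 2 and 3. The induced array was lower in each number, by -0.10, -0.21 and -0.21, with induced 3 just above control 1. This probe set had a log2 fold change of -0.17 ± 0.092 (SE), with a 95% interval of -0.39 to 0.040. It was -0.11 without control 3 and -0.11 with array quality weights.

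The other 3 Gart probe sets showed smaller differences. Probe set 1424436_at gave a log2 fold change of -0.097 ± 0.099 (SE), and without control 2, which stood highest at 11.81, it gave -0.0033. Probe set 1424435_a_at also had its highest array in control 2, at 11.49 against 10.995 to 11.26 elsewhere, and gave -0.013 ± 0.14. Probe set 1441911_x_at gave -0.052 ± 0.11. Adsl encodes adenylosuccinate lyase, used once in ring assembly and again in turning IMP to AMP. Its probe set 1418372_at read 10.93, 11.09 and 10.87 in controls 1, 2 and 3, against 10.92, 10.93 and 10.98 in induced samples 1, 2 and 3. The induced arrays lay within the range of the controls, with a log2 fold change of -0.020 ± 0.083 and a 95% interval of -0.21 to 0.17.

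**Figure D3:**
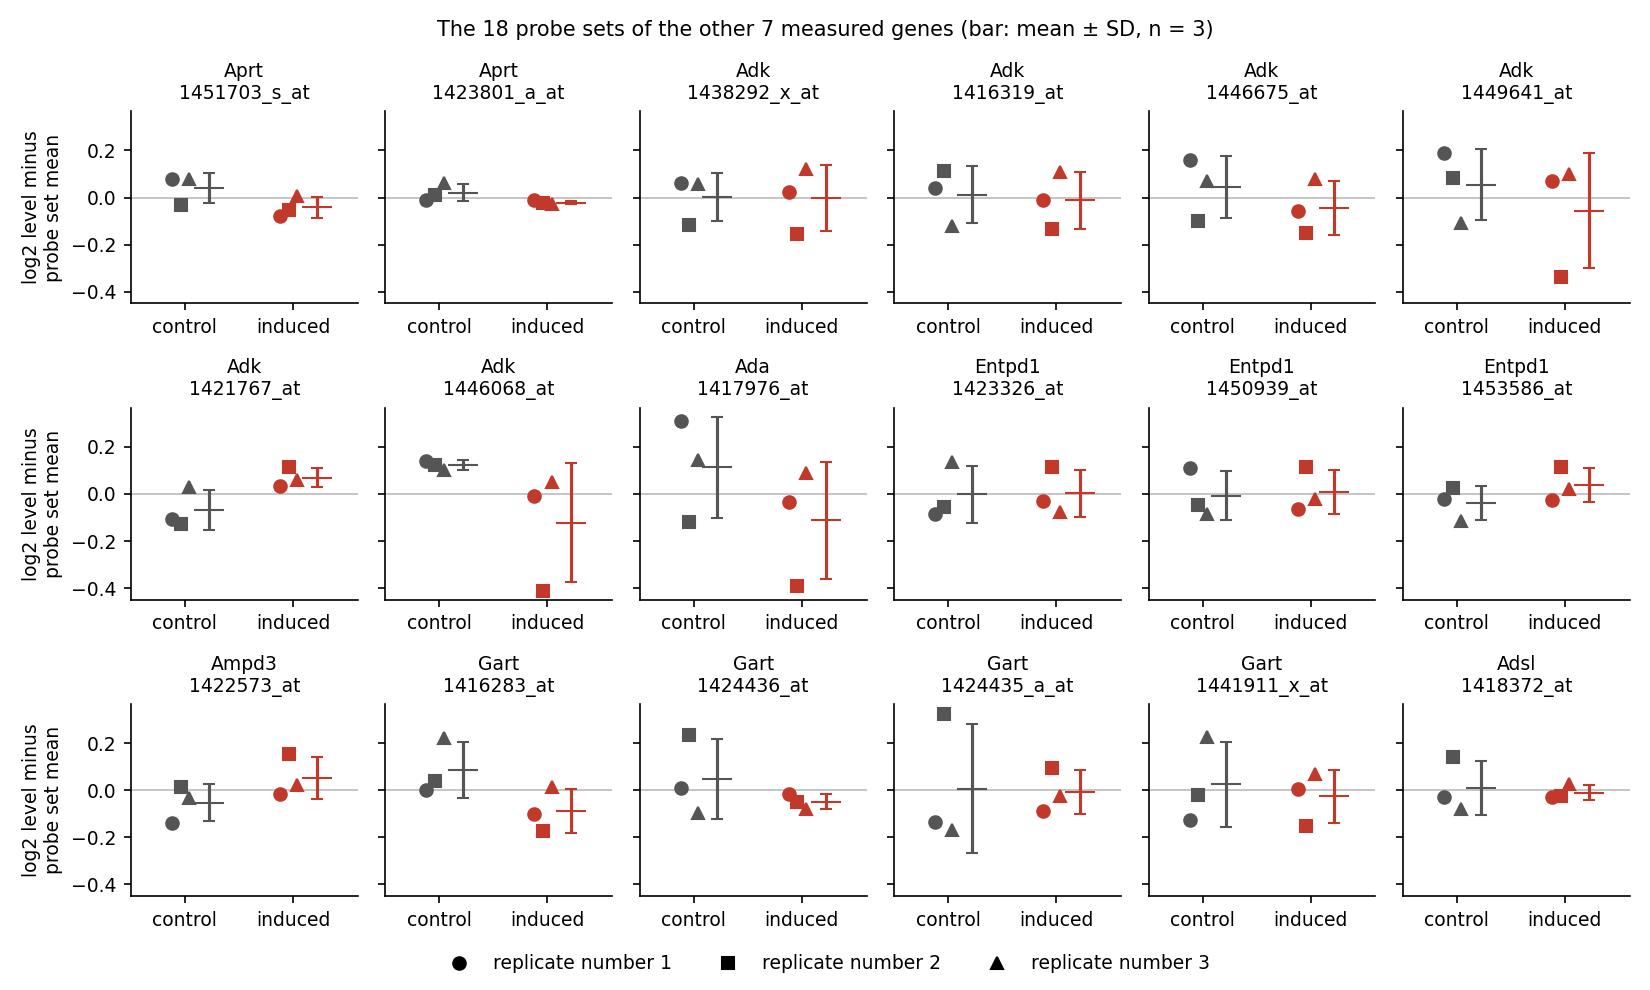
The 18 probe sets of Aprt, Adk, Ada, Entpd1, Ampd3, Gart and Adsl in each array, as the log2 level minus the probe set's mean over the 6 arrays, with mean ± SD of 3 arrays per group. Controls are grey, induced samples red, and symbols give the replicate number. Control and induced arrays overlap in 15 of the 18 panels, and single arrays such as induced 2 in Adk 1446068_at and control 2 in Gart 1424435_a_at stand apart.

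The wider pathway was read from 11 lists of 97 genes, of which 81 were measured, each by its probe set with the highest mean. Without Hprt and Nt5e, 0 of 79 genes passed limma's adjusted threshold, where 0.0055% of all genes did, and 3 had an unadjusted p under 0.05, where 1.59% of all genes did. These 3 were Ppat, Ak4 and P2ry4, and those of Ppat and Ak4 were _s_at probe sets, which can also read related transcripts. Among the 79 genes 1 had all induced arrays above the controls and 6 had all below. Of all 18193 genes 524 and 712 did. Negative log2 fold changes were found in 55 of the 79, or 69.6%, with a median of -0.028, against 48.9% and 0.0026 over all genes. Brighter genes leaned lower in the deposited values, since of all genes above the table's median level 57.4% were negative, with a median of -0.018. Of the 57 purine genes above that level 75.4% were negative, with a median of -0.055. After quantile normalization these shares were 47.2% of all brighter genes and 61.4% of the purine ones. Within numbers 1, 2 and 3 the share of the 57 that was negative came to 71.9%, 75.4% and 59.6%, beside 54.4%, 61.9% and 52.2% of all brighter genes. Over the alternatives the share of the 79 genes that was negative ran from 57%, with genes read by their probe set with the largest SD, to 77.2%, with arrays centred on their medians, beside 44.9% and 56.1% of all genes. The 16 listed genes with no matching symbol were not analysed here.

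De novo synthesis had all 6 of its measured genes with negative log2 fold changes and 0 past the threshold, with a median of -0.099. Ppat, whose enzyme commits phosphoribosyl pyrophosphate (PRPP) to the route, had -0.23 ± 0.098 (SE). It read 11.75, 11.64 and 11.67 in controls 1, 2 and 3 and 11.52, 11.27 and 11.57 in the induced arrays, which did not overlap with them. Pfas, the enzyme of a later amidation step, had -0.28 ± 0.14, with induced 2 lowest at 11.05. Paics and Atic, which encode bifunctional enzymes of the route, had -0.016 ± 0.083 and -0.024 ± 0.094. The count of negative genes fell to 4 of 6 without induced 2, without control 2, without control 3, without both arrays of number 2, after quantile normalization, with array quality weights, and when genes were read by their probe set with the largest SD.

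Enzymes that feed this route were likewise not past the threshold. Among the 7 measured genes for folate one-carbon units 5 were negative, with a median of -0.14. Mthfd2, a mitochondrial folate dehydrogenase, had -0.25 ± 0.11 (SE), Mthfd1, its cytosolic trifunctional relative, -0.14 ± 0.085, and Shmt1, a serine hydroxymethyltransferase, -0.14 ± 0.075. PRPP supply had 3 of 4 negative, with Prpsap1 at -0.12 ± 0.081, Prps2 at -0.12 ± 0.12 and Prps1 at -0.098 ± 0.083.

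Beyond IMP, 3 of 4 measured genes were negative, and Gmps, which makes GMP, had -0.090 ± 0.075 (SE). Impdh1, an IMP dehydrogenase gene, had -0.058 ± 0.077. Adssl1 and Adss, which encode the adenylosuccinate synthetases on the way to AMP, had 0.094 ± 0.12 and -0.0084 ± 0.084. Of the salvage list 7 of 9 genes were measured, and apart from Hprt 1 was positive, Dguok at 0.0019 ± 0.11. Without Hprt the negative ones were 3 of 6 after quantile normalization, 2 of 6 within number 3 and 6 of 6 within number 2. The salvage kinase gene Dck had -0.11 ± 0.11, and Mtap, which frees adenine from a by-product of polyamine synthesis, -0.082 ± 0.13.

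Breakdown genes were negative in 9 of 10, beside 48.9% of all genes, with a median of -0.057 and 0 past the threshold. Besides Ada these included the xanthine oxidoreductase gene Xdh at -0.14 ± 0.087 (SE), the dNTP hydrolase gene Samhd1 at -0.090 ± 0.070, Ampd2 at -0.033 ± 0.072 and the S-adenosylhomocysteine hydrolase gene Ahcy at -0.036 ± 0.075. Without control 3 the breakdown genes were negative in 7 of 10, within number 2 in 4 of 10, and within numbers 1 and 3 in 8 of 10. Nucleotidases and kinases inside the cell were negative in 10 of 12. Their count was 7 of 12 after quantile normalization, without control 3 and without induced 1, and 11 of 12 with arrays centred on their medians. Ak4, a mitochondrial adenylate kinase, had -0.25 ± 0.095 and stood at 9.79, 9.995 and 9.74 in controls 1, 2 and 3, against 9.69, 9.52 and 9.57 in induced samples 1, 2 and 3. Ak3 had -0.13 ± 0.10, the guanylate kinase gene Guk1 -0.096 ± 0.094, and the nucleoside diphosphate kinase genes Nme1 and Nme2 -0.064 ± 0.077 and -0.016 ± 0.071.

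The lists of ectonucleotidases and nucleoside transporters were divided. Apart from Nt5e the ectonucleotidase list split 4 positive and 4 negative. Among its genes Entpd6 had -0.18 ± 0.10 (SE), Alpl, the tissue-nonspecific alkaline phosphatase gene, -0.15 ± 0.095 and Entpd5 -0.14 ± 0.072. Nucleoside transporters split 3 and 2, with Slc29a1, the main equilibrative transporter gene, at 0.082 ± 0.20, Slc29a2 at -0.13 ± 0.12, Slc29a4 at 0.088 ± 0.10 and Slc28a3 at -0.096 ± 0.079. Of the 4 adenosine receptor genes Adora3 alone was matched, at -0.026 ± 0.091, and Dpp4, of the same list, had -0.022 ± 0.079.

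Genes named as P2 receptors, most of which sense extracellular nucleotides, were positive in 9 of 15, but 12 of the 15 lay below the table's median level. P2ry4, a G-protein-coupled nucleotide receptor, had the largest difference, 0.31 ± 0.11 (SE), with all induced arrays, at 6.97 to 7.24, above the controls, at 6.58 to 6.90. P2rx2 had 0.16 ± 0.13, P2rx4 0.13 ± 0.14, P2rx6 -0.055 ± 0.086 and P2ry10 -0.077 ± 0.075. None of them passed limma's adjusted threshold, each standing at an adjusted p of 0.9998.

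**Figure D4:**
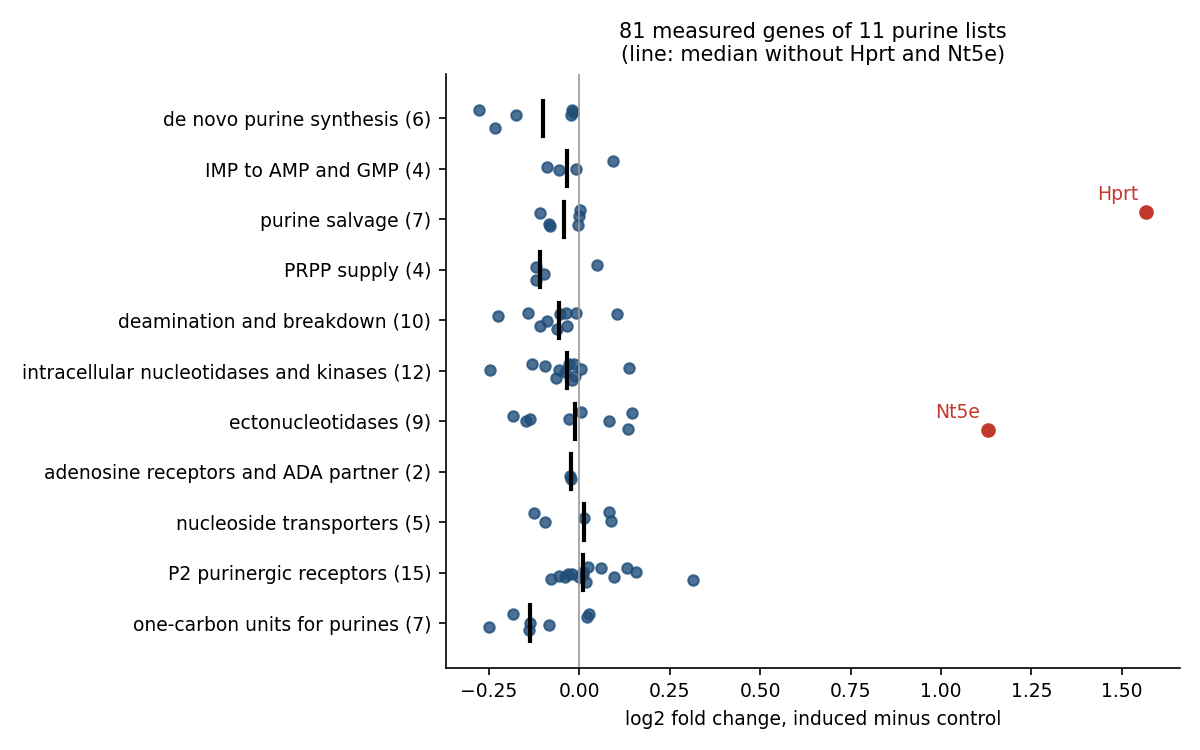
Log2 fold change, induced minus control, of the 81 measured genes in 11 purine lists, with the number measured in brackets and a line at each list's median without Hprt and Nt5e (red). Hprt at 1.57 and Nt5e 1428547_at at 1.13, both genes chosen for their rise, lie above the other 79, which lie between -0.28 and 0.31. The other Nt5e probe sets, 1422974_at and 1459023_at, had 0.30 and -0.016. In controls 1422974_at was brighter than 1428547_at, with means of 8.49 and 8.33.

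Other genes with a pattern over the 6 arrays like that of Hprt or Nt5e were sought among 693 genes with an SD of at least 0.3, as a description with no test. Nearest to Hprt by Pearson r were Lmo2 (0.97), a LIM-domain cofactor, Rnase4 (0.97), a ribonuclease, and Exoc3l (0.96). Lmo2 read 8.58, 8.67 and 8.87 in controls 1, 2 and 3, against 9.54, 9.33 and 9.68 in induced samples 1, 2 and 3. Nearest to Nt5e 1428547_at were the ETS factor gene Elk3 (0.98), Tafa4 (0.97), a secreted protein gene, and the C/EBP-delta gene Cebpd (0.97). Elk3 read 7.82, 7.94 and 7.24 in controls 1, 2 and 3 and 8.65, 8.32 and 8.37 after induction, with control 3 lowest as for Nt5e. The 6 arrays are shared by every gene compared, and the difference between the groups enters each such correlation.

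The labelled cells were checked against their markers. All 5 measured mesoderm markers (Kdr, Pdgfra, Mesp1, Mixl1 and Eomes) and all 6 pluripotency markers lay above the table's median level on average over the 6 arrays, while 0 of 7 endothelial and 1 of 6 blood markers did. The mean of the endothelial markers ran from 6.07 to 6.18 in controls and from 6.17 to 6.42 in induced samples, the highest being induced 2, and that of the blood markers from 6.59 to 6.80 and from 6.57 to 6.96. Endoderm markers, with 5 of 6 above the median level, ran from 8.25 to 9.17 and from 8.66 to 8.97. Induced 2 also stood apart in its median level, 7.40 against 7.34 to 7.35 in the other arrays, and in its lower quartile, 6.06 against 5.96 to 6.01. Its upper quartile was the lowest, 9.13 against 9.20 to 9.27, as was its array quality weight, 0.32 against 0.64 to 1.86. Without induced 2 the Hprt log2 fold change was 1.65 and that of Nt5e 1428547_at 1.13.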

How the data were processed

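The deposited table holds log2 expression values for 45101 probe sets on 6 Affymetrix arrays, which the authors computed by RMA according to the labels and per the submitters' processing notes. This method corrects background, normalizes the arrays together and summarises the probes of a set. The version of RMA is not given in the sources. After 64 Affymetrix control probe sets were left out, 45037 were fitted with limma (3.58.1, R 4.3.3; lmFit and eBayes, two-sided), induced minus control, with Benjamini-Hochberg adjustment and a threshold of 0.05. Group means carry the SD, fold changes the SE of the fit and a 95% interval. Symbols came from the GEO platform annotation. For the purine lists each gene was read by its probe set with the highest mean. The fit was tested on simulated data.

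The named genes were all member probe sets, Etv2 and Kdr, in each purine list the 3 genes with the smallest p and the 2 brightest, and for Hprt and Nt5e the 3 genes with the highest Pearson r. Other genes were chosen after their values were seen. The members, the lists and the rule were chosen with earlier results of these data known.

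Both groups use replicate numbers 1, 2 and 3. Over probe sets, same-numbered arrays deviated together from their group means, with correlations of 0.25, 0.17 and 0.23, all over 0.1, so the numbers were treated as pairs in an alternative with the number as a block. The pairing comes from these correlations alone, since the labels name no common day or culture, and it is not exclusive: of the other pairs control 1 with induced 3 gave 0.21 and control 2 with induced 1 gave 0.18, while the rest ran from -0.39 to 0.066. Other alternatives were median centring, quantile normalization, leaving out dim probe sets, 1 probe set per gene, eBayes with trend and robust settings, array quality weights, and leaving out each array. With 3 arrays per group the number of arrays limits the precision.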

Additional observations from a re-analysis of the deposited data

How the results depend on the processing

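The count of probe sets past the threshold was 1 in the reported fit, that of Hprt, which was chosen for its rise, so the count is given for the table and is no test of Hprt. It became 0 with the replicate number as a block (replicate block) and 0 with arrays centred on their medians. It was also 0 without each single array in turn, and 0 without both arrays of number 1, 0 without both of number 2 and 0 without both of number 3, these last settings being chosen after the data were seen. By limma 690 probe sets had an unadjusted p under 0.05 in the reported fit, 1298 with the block and 738 after centring. The pairing ended no other call. The log2 fold change of Hprt stayed between 1.48 and 1.65 over 17 alternatives, and that of Nt5e 1428547_at between 0.76, without control 3, and 1.41, without control 2. The count of the other members' probe sets past the threshold and that of purine list genes were 0 under all alternatives. The sign turned under an alternative in 8 of the 18 other member probe sets, all at most 0.11 in size in the reported fit, and in Nt5e 1459023_at.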
